A study of Mus musculus with 8 samples.

Results

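The 9 genes described here encode the JAK kinases Jak1, Jak2, Jak3 and Tyk2 and the STAT factors Stat2, Stat3, Stat5a, Stat5b and Stat6 of the mouse. They were taken by symbol from the 23337 genes of the count table, and all 9 passed the filter on low counts in each of 5 comparisons. RNA was sequenced from the bone marrow of C57BL/6 mice aged 4 months. Every group carried JAK2V617F/+, which is 1 activated and 1 normal copy of Jak2, and bore the label Plek2+/+ or Plek2-/-. The product of Plek2, pleckstrin-2, is a phosphoinositide-binding protein that acts on the actin cytoskeleton of red cell precursors. In each genotype, erythroblasts (nucleated red cell precursors) were taken as TER119-positive marrow cells, and stem and progenitor cells (progenitors below) as Kit-positive cells of the lineage-negative fraction. Each of the 4 groups held 2 libraries, and the labels do not say whether these came from separate mice, so the p-values measure only the spread between these samples. All mice carried the Jak2 mutation, so its own effect was not measured, and how the mutant Jak2 and Plek2 alleles were built is not given in the sources used here.

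Receptors for many cytokines have no kinase of their own and rely on JAK kinases bound to their inner ends. When a cytokine brings receptor chains together, the JAK kinases activate each other and phosphorylate the receptor, STAT factors dock there, become phosphorylated, pair up and move to the nucleus, where they switch on target genes. In the red cell lineage the erythropoietin receptor signals mainly through Jak2 and Stat5, and the V617F change, which lies in the pseudokinase domain of Jak2, makes that kinase active without the hormone. These steps are controlled largely by phosphorylation of the proteins, whereas the values here are levels of messenger RNA.

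A few sequences bear on how the counts are read. The first is the reference coding sequence of Jak2 around the V617F position (chr19:29251828-29313080, plus strand, GRCm38), with the valine codon that V617F changes, coding bases 1849 to 1851, in capitals. Counts per gene do not separate the mutant from the normal copy.
Jak2 V617F codon, reference allele: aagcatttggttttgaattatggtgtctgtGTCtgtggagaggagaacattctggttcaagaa
Stat5a (chr11:100859351-100885169, plus strand) and Stat5b (chr11:100780731-100850724, minus strand) lie 8626 bases apart and encode close relatives. Their coding sequences share an identical run of 324 bases, coding bases 571 to 894 in both, of which the first 120 bases are shown without capitals because all are shared.
Stat5a and Stat5b shared run: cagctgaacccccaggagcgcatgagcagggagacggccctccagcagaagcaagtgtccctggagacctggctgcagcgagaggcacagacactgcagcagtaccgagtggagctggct
Of the stretches of 50 bases in the transcripts of each gene, 8.208% of those of Stat5a and 10.985% of those of Stat5b also occurred in the other gene, and no other pair of members shared any. How the authors' counting treated reads from such stretches is not given in the sources used here, so the split of reads between Stat5a and Stat5b is uncertain. Stat3 (chr11:100885098-100939540, minus strand) overlaps Stat5a tail to tail by 72 exon bases, and without a known strand setting reads from that overlap cannot be told apart. Jak3 (chr8:71676296-71690575, plus strand) shares 404 exon bases with Insl3, which had 0 to 12 counts per library. Tyk2 shares 554 exon bases with the antisense gene 1700084C06Rik, which was not analysed here, and reads of that stretch cannot be told apart either without the strand setting.

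Promoters of all 9 genes were matched in RefSeq (GRCm38.p6), and the 250 bases before the first listed start are shown for Stat3, the member with a called genotype difference, and for Stat2, the member with an interferon response motif. Capitals mark the motif matches, written 5′ to 3′ on the strand of the gene.
Stat3 promoter (chr11:100939541-100939790, minus strand): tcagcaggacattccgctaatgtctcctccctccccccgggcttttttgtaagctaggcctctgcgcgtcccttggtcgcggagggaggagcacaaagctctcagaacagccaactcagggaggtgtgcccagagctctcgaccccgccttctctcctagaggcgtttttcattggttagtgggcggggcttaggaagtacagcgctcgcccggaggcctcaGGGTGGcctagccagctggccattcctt
Stat2 promoter (chr10:128270248-128270497, plus strand): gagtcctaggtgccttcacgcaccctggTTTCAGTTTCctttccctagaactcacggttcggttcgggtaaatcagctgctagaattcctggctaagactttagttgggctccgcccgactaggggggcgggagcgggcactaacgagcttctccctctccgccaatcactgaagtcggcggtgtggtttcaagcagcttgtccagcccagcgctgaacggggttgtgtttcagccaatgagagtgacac
Motifs were sought on both strands by their letters. The core of the interferon-stimulated response element occurred in the Stat2 promoter alone among the members (1 of 9), as the letters in capitals above, and in 2.98% of 32851 mouse promoters. The CACCC box CCACCC, which erythroid Krüppel-like factors bind, occurred in Tyk2, Stat3 and Stat6 (3 of 9) and in 28.1% of all promoters. The STAT site TTCNNNGAA (7.02% of all promoters) and the GATA motif AGATAA (9.99%) were found in 0 of 9.

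Library totals ran from 16038035 to 23521726 counts, and the lowest count of a member was 99. Levels are given in counts-per-million (CPM), where the 3 counts that a listed 0 could hide come to 0.128 to 0.187. Library totals for CPM were scaled by TMM, edgeR's trimmed-mean method, whose factors were 0.738 to 0.772 in erythroblasts and 1.298 to 1.328 in progenitors. Erythroid markers summed to 101000 to 125000 CPM in erythroblasts and 962 to 1110 in progenitors, although the globin symbols Hbb-b1 and Hba-a1 were listed at 0 in every library. Stem and progenitor markers summed to 158 to 220 CPM in erythroblasts and 932 to 1070 in progenitors. Plek2 had 1770 and 1894 counts in erythroblasts labelled Plek2+/+ and 616 and 781 in those labelled Plek2-/-. In progenitors it went against the label, with 29 and 21 counts under Plek2+/+ and 130 and 173 under Plek2-/- (log2 fold change 2.47 ± 0.28 SE, adjusted p = 0.00253). Which exons of Plek2 the allele lacks is not given in the sources used here. Xist ran from 2522 to 3043 CPM in the 4 libraries labelled Plek2+/+ and from 2.128 to 3.598 CPM in the 4 labelled Plek2-/-, and the Y-linked gene Ddx3y from 0.0674 to 0.235 CPM and from 117 to 280 CPM. Sex and the Plek2 label therefore cannot be told apart in any genotype comparison below. In bulk libraries such as these, fewer cells of a type and less RNA per cell cannot be told apart either.

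The members were first set in order within each population by level per length, in CPM per kb of exon. Jak1, which serves receptors with the gp130 chain, interferon receptors and receptors with the common gamma chain, stood first in all 4 groups, at 73.1 ± 1.70 CPM per kb (SD, n = 2) in erythroblasts labelled Plek2+/+ and 42.9 ± 0.53 in the matching progenitors. Jak2 came second in erythroblasts, at 60.9 CPM per kb under Plek2+/+ and 57.3 under Plek2-/-, and stood in progenitors, at 27.3 and 27.99, behind Jak1 and Stat6, which acts downstream of interleukin-4 and interleukin-13. Jak3, the partner of the common gamma chain, was last in erythroblasts, at 2.14 and 1.54 CPM per kb, and above only Stat2 in progenitors labelled Plek2+/+ and last in those labelled Plek2-/-. Among STAT genes the order was Stat6 and then Stat5b in every group. Below these it was Stat2, Stat3 and Stat5a in erythroblasts, and Stat3, Stat5a and Stat2 in progenitors. Neighbours in these orders had libraries that did not overlap, except Stat2 and Stat3 in erythroblasts labelled Plek2+/+ (8.78 and 9.995 against 8.94 and 9.04 CPM per kb). The order rests on the length used: with coding lengths 29 of the 36 pairs of members kept their order in progenitors labelled Plek2+/+ and 34 in erythroblasts labelled Plek2+/+. By coding length Stat3 stood above Stat6 and Stat5b, and Jak2 below Stat5b, in progenitors of either label. Stat3 also stood above Stat5b in erythroblasts labelled Plek2+/+, and above Stat2 in erythroblasts of either label. By transcript length Stat3 stood above Jak2 and Stat5b in progenitors labelled Plek2-/-, and above Stat2 in erythroblasts labelled Plek2+/+. Jak1 stayed first throughout.

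Among 12060 genes that passed the filter on low counts and had a length, Jak1 stood at percentile 94.4 in erythroblasts labelled Plek2+/+. It also stood at 94.4 in the matching progenitors. Jak2 stood at percentile 93.1 and 89.5. Jak3 stood at percentile 32.3 in erythroblasts and 60.3 in progenitors. The members thus ranged from among the more abundant messages of these libraries to below the middle of the genes that passed the filter. Genes that failed it are not ranked.

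Compared between the populations, Jak2 and Jak1 were higher in erythroblasts, and Jak3, Tyk2, Stat3, Stat5a and Stat5b were lower, while Stat2 and Stat6 differed least. These directions and sizes are relative to the bulk of genes under TMM scaling. With library totals alone as the scale, the median of all genes moved from -0.06 to -0.87 (log2, erythroblasts over progenitors, Plek2+/+ label) and from -0.07 to -0.86 (Plek2-/- label), and Jak1 and Stat2 changed sign. The share of called genes that were higher in erythroblasts was 48.8% and 48.9% under TMM scaling and 18.7% and 20.5% on library totals. Under the Plek2+/+ label 8 of 9 members were called (3 higher, 5 lower), against 73.8% of all genes (36% higher, 37.8% lower). Under the Plek2-/- label 8 of 9 were called (2 higher, 6 lower), against 76.7% (37.5% higher, 39.2% lower). These member counts lie near the shares of all genes and are not a result about the family. The libraries of the 2 populations did not overlap for 89.1% of all genes under Plek2+/+ and 87.9% under Plek2-/-. On library totals these shares were 93.0% and 91.7%. Separation of the populations, where it is given for a member below, is therefore what most genes showed.

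**Figure D1:**
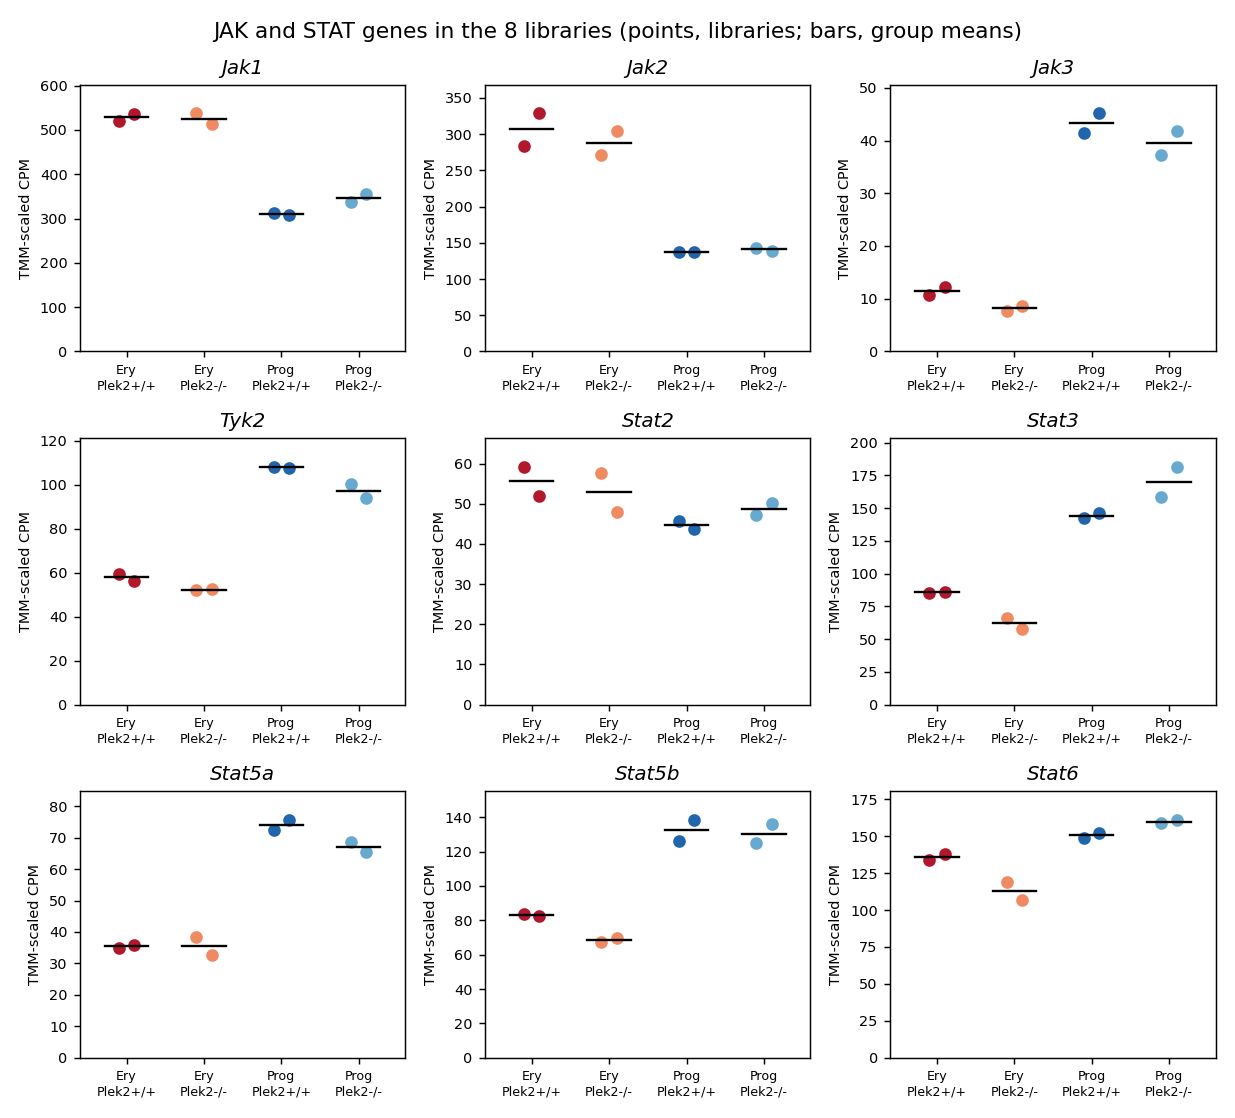
Level of each member (TMM-scaled CPM, linear axes from 0) in the 8 libraries, as points, with the mean of each group of 2 as a bar; Ery is erythroblasts and Prog progenitors. Jak2 sits between 271 and 329 CPM in the 4 erythroblast libraries and between 137 and 143 in the 4 progenitor libraries, and Stat3 between 57.5 and 86.1 and between 143 and 182.

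Jak2, the kinase of the erythropoietin and thrombopoietin receptors, had 284 and 329 CPM in erythroblasts labelled Plek2+/+ and 271 and 305 in those labelled Plek2-/-. In progenitors it had 138 and 137 CPM under Plek2+/+ and 143 and 138 under Plek2-/-. All erythroblast libraries lay above all progenitor libraries, and the 2 genotypes overlapped within erythroblasts. The level was 2.23-fold higher in erythroblasts under Plek2+/+ (log2 1.16 ± 0.09 SE, adjusted p = 8.08e-08) and 2.05-fold under Plek2-/- (log2 1.03 ± 0.09 SE, adjusted p = 2.1e-07). Jak2 was the member whose rise held under every scaling tried: on library totals the log2 difference was 0.34 (adjusted p = 0.00159) and 0.25 (adjusted p = 0.0126).

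Jak1 had 519 and 537 CPM in erythroblasts labelled Plek2+/+, 537 and 514 in those labelled Plek2-/-, 313 and 308 in progenitors labelled Plek2+/+ and 336 and 356 in those labelled Plek2-/-. Erythroblasts were higher in all libraries on this scale, by log2 0.77 ± 0.08 SE (adjusted p = 1.2e-06) and 0.60 ± 0.08 SE (adjusted p = 1.04e-05). On library totals the sign turned, to -0.05 (adjusted p = 0.53) and -0.18 (adjusted p = 0.0273), so whether Jak1 differs between the populations depends on the scale.

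Jak3 was the member with the largest population difference. It had 10.7 and 12.2 CPM in erythroblasts labelled Plek2+/+ (175 and 179 counts) and 7.74 and 8.70 in those labelled Plek2-/- (99 and 128 counts), and progenitors had 41.4 and 45.1 CPM and 37.3 and 41.9 CPM. All erythroblast libraries lay below all progenitor libraries. Jak3 was 3.79-fold lower in erythroblasts under Plek2+/+ (log2 -1.92 ± 0.12 SE, adjusted p = 7.91e-09) and 4.804-fold lower under Plek2-/- (log2 -2.26 ± 0.12 SE, adjusted p = 2.61e-09). Markers of lymphoid cells, in which Jak3 is best known, were mostly lower in erythroblasts too. T and NK cell markers summed to 40.5 to 55.4 CPM in erythroblasts and 100 to 117 in progenitors, and B cell markers to 80.2 to 198 and 272 to 353. Of the 10 T and NK cell markers, 9 were called lower under either label, and Cd4 was called higher. Of the 10 B cell markers, 7 were called lower under Plek2+/+ and 10 under Plek2-/-, with 0 higher. Among all genes 37.8% and 39.2% were called lower. The part of lymphoid cells in the result was not tested.

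Tyk2, which serves the receptors for type I interferon and interleukin-12, had 59.4 and 56.3 CPM and 52.1 and 52.5 CPM in erythroblasts (Plek2+/+ and Plek2-/- label) and 108 and 108 CPM and 100 and 93.9 CPM in progenitors. The populations did not overlap. Tyk2 was 1.87-fold lower in erythroblasts under Plek2+/+ (log2 -0.90 ± 0.08 SE, adjusted p = 2.54e-07) and 1.86-fold lower under Plek2-/- (log2 -0.89 ± 0.08 SE, adjusted p = 2.64e-07).

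As a share of the summed level per length of the 4 kinases, Jak1 made up 49.5% to 54.1% in erythroblasts and 45.3% to 50.1% in progenitors. Jak2 made up 39.3% to 43.5% in erythroblasts and 28% to 29.5% in progenitors. Jak3 and Tyk2 moved the other way, from 7.22% to 8.98% and 13.9% to 16.7% in progenitors to 1.05% to 1.51% and 5.42% to 6.22% in erythroblasts. These shares do not depend on how libraries are scaled, and for Jak2, Jak3 and Tyk2 the 4 erythroblast libraries did not overlap the 4 progenitor libraries. Jak1 overlapped between the populations on this measure.

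**Figure D2:**
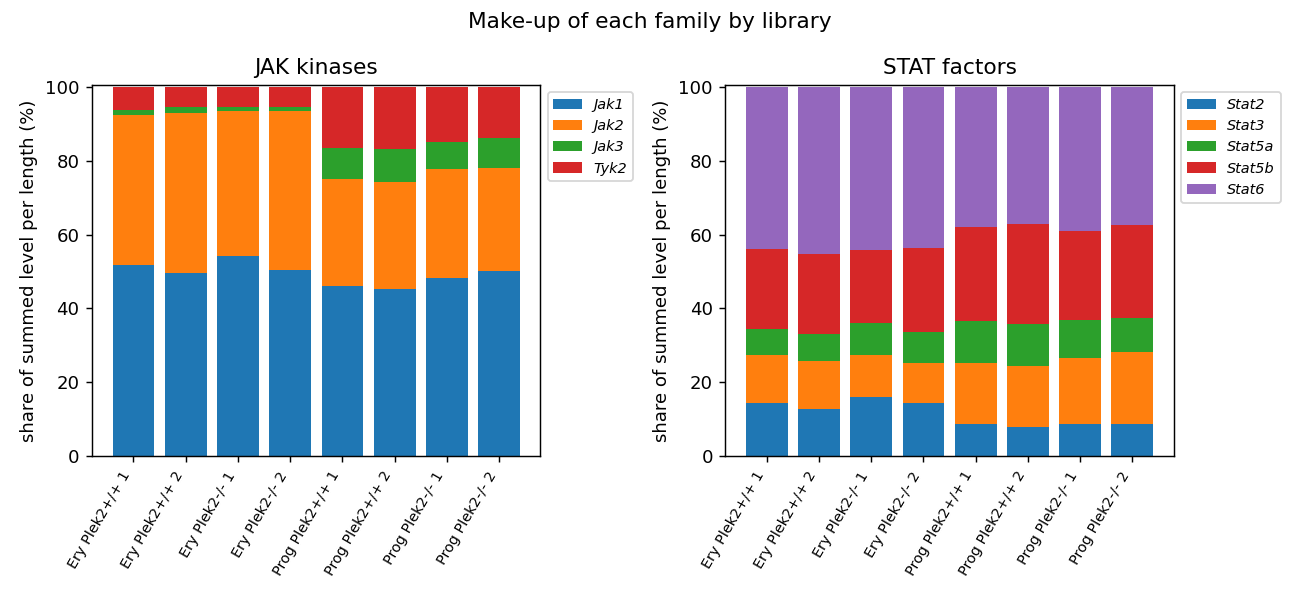
Make-up of the JAK kinases (left) and STAT factors (right) in each library, as the share of the summed level per length in percent, 1 stacked bar per library. Jak2 takes 39.3% to 43.5% of the kinase level in erythroblasts and 28% to 29.5% in progenitors, and Stat3 falls from 12.9% and 13.1% to 11.4% and 10.8% between erythroblasts labelled Plek2+/+ and Plek2-/-.

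Stat5a and Stat5b, the factors that act downstream of the erythropoietin receptor, were lower in the erythroblasts than in the progenitors. Stat5a had 34.9 and 35.9 CPM and 38.3 and 32.8 CPM in erythroblasts (Plek2+/+ and Plek2-/- label) and 72.4 and 75.7 CPM and 68.5 and 65.6 CPM in progenitors. Stat5b had 83.9 and 82.2 CPM and 67.4 and 69.9 CPM in erythroblasts and 126 and 139 CPM and 125 and 136 CPM in progenitors. For both genes every erythroblast library lay below every progenitor library. Under Plek2+/+ the difference was log2 -1.07 ± 0.09 SE for Stat5a (adjusted p = 2.63e-07) and -0.67 ± 0.08 SE for Stat5b (adjusted p = 6.06e-06). Under Plek2-/- it was -0.92 ± 0.09 SE (adjusted p = 1.02e-06) and -0.93 ± 0.08 SE (adjusted p = 2.71e-07). Given the sequence they share, the values of the 2 genes are less certain apart than together.

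Stat3, the factor of the interleukin-6 family and of the granulocyte colony-stimulating factor receptor, had 85.2 and 86.1 CPM in erythroblasts labelled Plek2+/+ and 66.4 and 57.5 in those labelled Plek2-/-. Progenitors had 143 and 146 CPM under Plek2+/+ and 159 and 182 under Plek2-/-. The 4 groups did not overlap, and the gap between the populations was wider under Plek2-/- (log2 -1.46 ± 0.09 SE, 2.75-fold lower in erythroblasts, adjusted p = 1.07e-08) than under Plek2+/+ (log2 -0.75 ± 0.09 SE, 1.69-fold lower, adjusted p = 6.21e-06). The test of that difference is given with the genotype comparisons.

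Stat6 had 134 and 138 CPM and 119 and 107 CPM in erythroblasts (Plek2+/+ and Plek2-/- label) and 149 and 152 CPM and 159 and 161 CPM in progenitors. It was lower in erythroblasts under Plek2-/- (log2 -0.50 ± 0.08 SE, adjusted p = 5.35e-05). Under Plek2+/+ the value was -0.15 (95% interval -0.31 to 0.02, adjusted p = 0.0932), and it passed the threshold when the 4 libraries were fitted alone and on library totals. Stat2, which joins Irf9 in the complex that answers type I interferon, had 59.2 and 52.0 CPM and 57.7 and 47.9 CPM in erythroblasts and 45.7 and 43.7 CPM and 47.3 and 50.2 CPM in progenitors. Its log2 difference was 0.32 ± 0.10 SE under Plek2+/+ (adjusted p = 0.0143) and 0.11 (95% interval -0.11 to 0.34, adjusted p = 0.328) under Plek2-/-, and on library totals it turned to -0.50 (adjusted p = 0.001) and -0.67 (adjusted p = 8.89e-05). The Plek2+/+ call was also lost without replicate 1 of the erythroblasts (adjusted p = 0.0529) or replicate 2 of the progenitors (adjusted p = 0.0934).

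**Figure D3:**
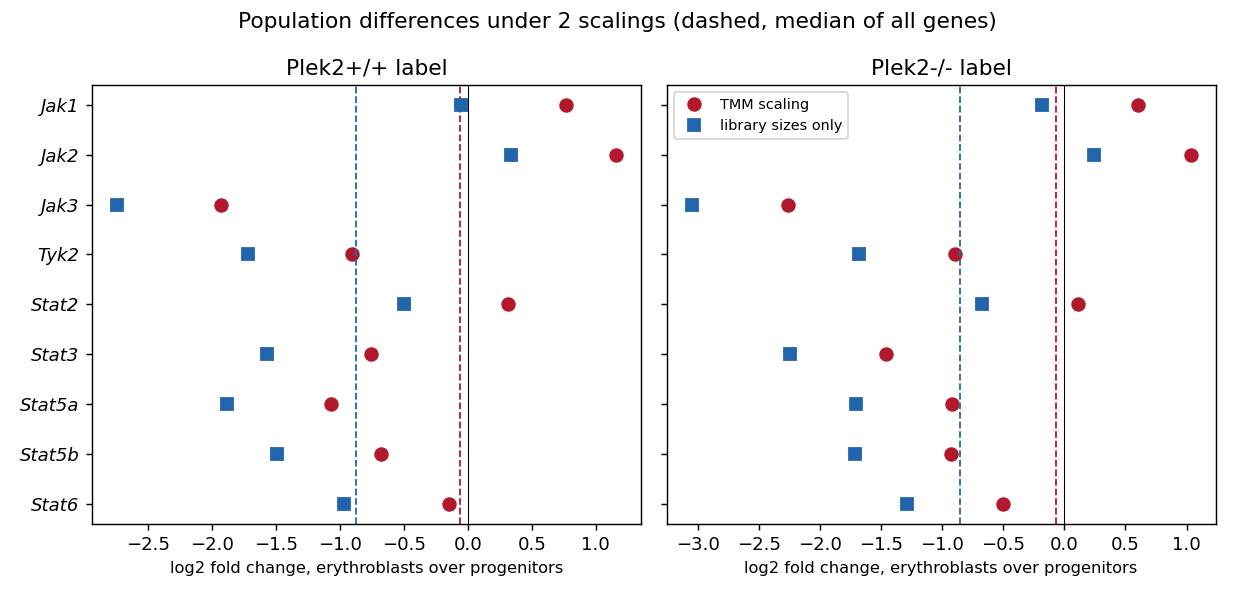
Log2 fold change of each member, erythroblasts over progenitors, under TMM scaling (circles) and library totals alone (squares), for the Plek2+/+ label (left) and the Plek2-/- label (right); dashed lines mark the median of all genes under each scaling. Jak2 stays above 0 under both scalings (1.16 and 0.34 on the left), Jak1 and Stat2 change sign, and the other members stay below 0.

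The second question was how each member differed between libraries labelled Plek2-/- and Plek2+/+ within a population. In erythroblasts Stat3 fell, and the other 8 members did not pass the test. Stat3 went from 85.2 and 86.1 CPM to 66.4 and 57.5, with no overlap, and was 1.38-fold lower (log2 -0.46 ± 0.10 SE, 95% interval -0.67 to -0.25, adjusted p = 0.0286). That is 1 of 9 members called, against 2.84% of all genes tested (0.18% higher, 2.66% lower); before adjustment 4 of 9 members and 1794 of 12241 genes had a p below 0.05. The call was kept without replicate 1 of the libraries labelled Plek2-/- but lost without replicate 2 of them (log2 -0.37, adjusted p = 0.128) and without replicate 1 (-0.47, adjusted p = 0.201) or replicate 2 (-0.47, adjusted p = 0.172) of those labelled Plek2+/+.

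Jak2 itself gave a log2 value of -0.08 ± 0.10 SE in erythroblasts (95% interval -0.30 to 0.15, adjusted p = 0.8), an interval that runs from 1.23-fold lower to 1.11-fold higher under the Plek2-/- label. Jak1 gave 0.00 (95% interval -0.20 to 0.20) and Stat5a 0.01 (-0.23 to 0.26). The values for Jak3 (-0.46, adjusted p = 0.224), Stat5b (-0.27, adjusted p = 0.17) and Stat6 (-0.25, adjusted p = 0.185) lay below 0 with both libraries labelled Plek2-/- under both labelled Plek2+/+, and failed the adjusted test; Stat6 passed it without replicate 1 of the libraries labelled Plek2-/-. Tyk2 (-0.14, adjusted p = 0.573) and Stat2 (-0.07, adjusted p = 0.85) were nearer 0. Both groups of 2 were apart for 5 of 9 members, all lower under Plek2-/-, and for 45.5% of all genes (21.5% higher, 23.9% lower). The median over the 9 members was -0.14, beside 0.01 over all genes tested.

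In progenitors 0 of 9 members were called by edgeR, against 4.91% of all genes (4.5% higher, 0.402% lower). Stat3 and Jak1 had an unadjusted p below 0.05 (2 of 9, beside 2273 of 13168 genes), and DESeq2 and limma-voom also called 0. Stat3 was higher under the Plek2-/- label, 159 and 182 against 143 and 146 CPM, without overlap (log2 0.28 ± 0.08 SE, 95% interval 0.10 to 0.46, adjusted p = 0.0939). It passed the threshold with no filter on low counts (adjusted p = 0.00558), without replicate 1 of the libraries labelled Plek2-/- (log2 0.37, adjusted p = 1.13e-05) and without replicate 2 of them (log2 0.18, adjusted p = 0.025). Without replicate 1 of the libraries labelled Plek2-/-, 4 members were called, with Jak1 and Stat2 higher and Tyk2 lower beside Stat3, when 2649 of 13512 genes were called in all. Without replicate 2 of them Jak1 and Stat3 were called higher, among 1739 of 13340 genes.

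For Jak1 the log2 value in progenitors was 0.20 ± 0.07 SE (adjusted p = 0.156). For Jak2 it was 0.08 ± 0.06 SE (95% interval -0.06 to 0.22, adjusted p = 0.579), which runs from 1.04-fold lower to 1.16-fold higher. Stat2 (0.17, adjusted p = 0.311) and Stat6 (0.13, adjusted p = 0.32) lay above 0 with no overlap between the groups, and Tyk2 (-0.11, adjusted p = 0.456) and Stat5a (-0.10, adjusted p = 0.515) below 0 with no overlap. Jak3 (-0.09, adjusted p = 0.683) and Stat5b (0.02, adjusted p = 0.929) overlapped. In all, the groups were apart for 7 of 9 members, 5 higher and 2 lower (4 and 3 on library totals), and for 52.2% of all genes (19% higher, 33.2% lower). The members' median was 0.08, beside -0.01 over all genes.

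The difference between the populations was tested directly, by taking the label effect of progenitors from that of erythroblasts. Stat3 was the 1 member called, at -0.71 ± 0.13 SE on the log2 scale (95% interval -0.98 to -0.43, adjusted p = 0.00493), against 5.55% of all genes (0.232% higher, 5.32% lower). The call was kept under all 15 alternatives run, with adjusted p from 3.18e-06 to 0.0286. Stat6 had -0.35 (adjusted p = 0.0882) and passed the threshold with a count of at least 10 in each library and without replicate 1 of the erythroblasts labelled Plek2-/-. Stat5b had -0.25 (adjusted p = 0.265) and Jak3 -0.34 (adjusted p = 0.323). The value for Jak2 was -0.13 (95% interval -0.40 to 0.14, adjusted p = 0.644).

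**Figure D4:**
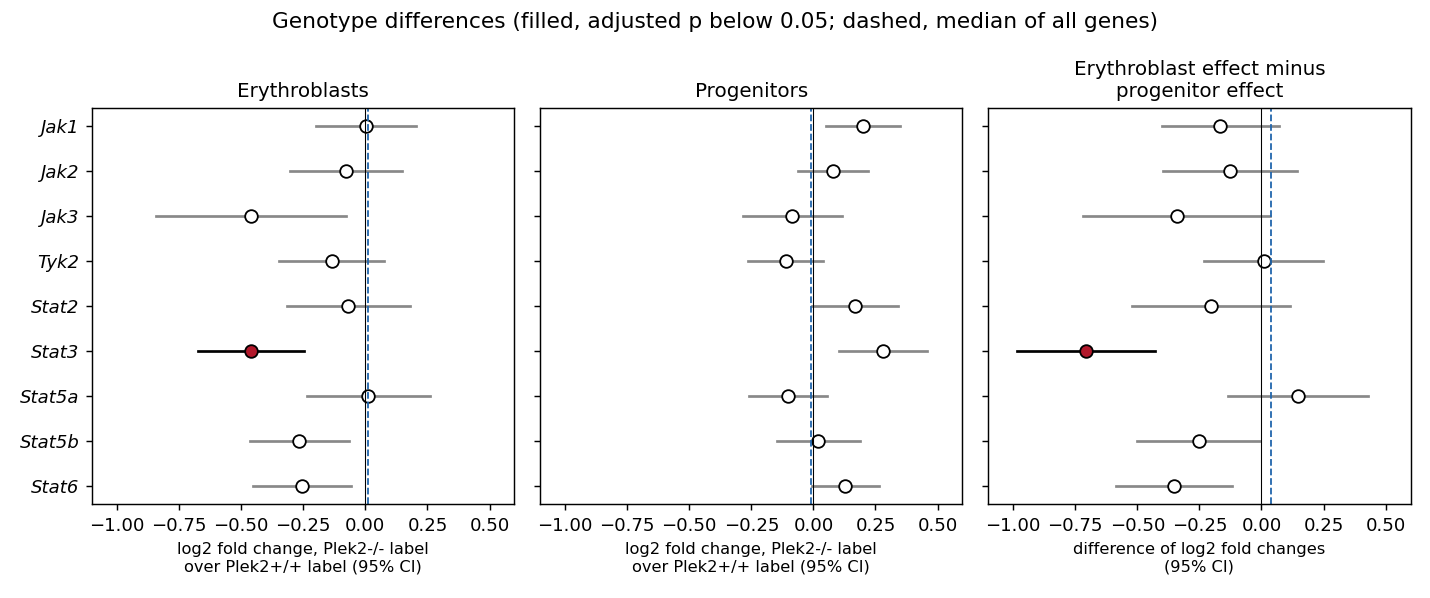
Log2 fold change of each member under the Plek2-/- label over the Plek2+/+ label in erythroblasts (left) and progenitors (middle), and the first minus the second (right); circles are fitted values, lines 95% intervals, filled circles adjusted p below 0.05, and dashed lines the median of all genes. Stat3 is the filled circle, at -0.46 in erythroblasts and -0.71 for the difference, and its value in progenitors is 0.28.

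Neutrophil markers moved with Stat3 in both populations. The 13 measured markers summed to 20300 and 23400 CPM in erythroblasts labelled Plek2+/+ and 15700 and 14300 in those labelled Plek2-/-. In progenitors they summed to 7820 and 4710 CPM under Plek2+/+ and 19800 and 26800 under Plek2-/-. In erythroblasts 8 of 13 were called lower, in progenitors 13 of 13 were called higher, and 13 of 13 were called lower for the difference; none was at 0 in every library. Between the populations, where Stat3 was lower in erythroblasts under both labels, 12 of 13 neutrophil markers were higher in erythroblasts under Plek2+/+ and 13 of 13 lower under Plek2-/-. Of the 10 B cell markers 5 were also called lower in erythroblasts labelled Plek2-/- (198 and 170 CPM in sum under Plek2+/+, 113 and 80.2 under Plek2-/-). Of the 6 primary granule markers 3 were called lower there (Mpo, Prtn3 and Cebpe; sums of 859 and 993 CPM under Plek2+/+, 689 and 666 under Plek2-/-), and 1 was called higher in progenitors (4400 and 5000, 3740 and 4560 CPM in sum). Sorting for lineage-negative, Kit-positive cells is meant to remove mature neutrophils and B cells from the progenitors. Taking TER119-positive cells is likewise meant to leave them out of the erythroblasts. Messages of the neutrophil and B cell lists were nevertheless counted in every library. The part of these cells in the Stat3 result was not tested.

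The other genes of the pathway were read from lists, beside the shares of all genes called: 0.18% higher and 2.66% lower in erythroblasts labelled Plek2-/-, 4.5% and 0.402% in progenitors, 36% and 37.8% in erythroblasts against progenitors under Plek2+/+, 37.5% and 39.2% under Plek2-/-, and 0.232% and 5.32% for the difference between genotype effects. The medians over all genes were 0.01, -0.01, -0.06, -0.07 and 0.04 in that order. Of 36 cytokine receptors 31 passed the filter in erythroblasts, where 3 were lower under the Plek2-/- label and 0 higher, with a list median of -0.29. Csf2rb, the shared chain of the interleukin-3, interleukin-5 and GM-CSF receptors, fell 1.58-fold (67 ± 3.44 to 42.2 ± 1.77 CPM, SD, n = 2, adjusted p = 0.00762), and Il7r, a receptor of lymphoid precursors, 1.72-fold (15.9 ± 0.43 to 9.21 ± 0.25 CPM, adjusted p = 0.0222). Il4ra, the receptor chain upstream of Stat6, was the other. The count was 0 without either library labelled Plek2+/+, 1 without replicate 2 and 9 without replicate 1 of those labelled Plek2-/-, and 8 with no filter. The erythropoietin receptor Epor gave -0.04 ± 0.10 SE (adjusted p = 0.898).

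In progenitors 3 of 33 receptors rose under the Plek2-/- label and 0 fell, with a list median of -0.03. Csf3r, the granulocyte colony-stimulating factor receptor and itself among the neutrophil markers, rose 2.42-fold (98.4 ± 10.2 to 231 ± 22.6 CPM, adjusted p = 0.000923). Il13ra1, a chain of the interleukin-13 receptor, rose 1.83-fold (15.2 ± 1.65 to 27.3 ± 2.88 CPM, adjusted p = 0.00454), and Csf2ra, the GM-CSF receptor chain, was the other. The count was 10 without replicate 1 and 13 without replicate 2 of the libraries labelled Plek2-/-, and 6 with no filter. For the difference between the populations 5 of 34 were called, all lower, with Csf3r at -1.60 ± 0.17 SE (adjusted p = 0.000272) and Csf2rb at -0.73 ± 0.13 SE (adjusted p = 0.00446). That count was 3 without replicate 2 of the erythroblasts or of the progenitors labelled Plek2+/+ and 2 without replicate 1 of the latter.

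Between the populations most receptor genes were lower in erythroblasts. Under Plek2+/+ 6 of 34 were higher and 25 lower, with a median of -0.99, and on library totals 2 were higher and 30 lower. Epor was 11.8-fold higher (242 ± 8.27 against 20.6 ± 0.92 CPM, adjusted p = 4.34e-12), beside 2.23-fold for its kinase Jak2. Il6st, the gp130 chain that signals through Jak1 and Stat3, was 8.02-fold lower (21.5 ± 1.66 against 173 ± 11.1 CPM, adjusted p = 2.01e-11). Under Plek2-/- 4 of 34 were higher and 26 lower, and 2 and 32 on library totals.

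Ligand genes were mostly too low to test, with 5 of 26 passing the filter in erythroblasts, where edgeR called 0 (1 had an unadjusted p under 0.05; DESeq2 and limma-voom also called 0), and 10 of 26 in progenitors. Osm, which encodes oncostatin M and is also a Stat5 target, rose in progenitors labelled Plek2-/- from 26.4 ± 1.39 to 44.0 ± 2.56 CPM (1.72-fold, adjusted p = 0.00232). It was the single ligand called there, and without replicate 1 of the libraries labelled Plek2-/- 2 were called. Between the populations 6 of 10 were lower in erythroblasts under Plek2+/+ and 0 higher, and 8 lower and 0 higher under Plek2-/-, several of them at a few counts in each erythroblast library. On library totals 9 were lower under either label. The Plek2+/+ count was 2 with at least 10 counts in each library, and the Plek2-/- count was 3 with that filter and 5 with DESeq2.

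Of 21 negative regulators 2 fell in erythroblasts labelled Plek2-/-, the phosphatases Ptpn1 (97.1 ± 8.11 to 70.9 ± 5.91 CPM, 1.36-fold, adjusted p = 0.0341) and Ptpn6 (168 ± 3.74 to 129 ± 5.56 CPM, 1.29-fold, adjusted p = 0.0405). The count was 0 without either library labelled Plek2+/+ or without replicate 2 of those labelled Plek2-/-, 5 without replicate 1 of the latter and 1 on library totals. In progenitors 2 rose under the Plek2-/- label. Socs3, a suppressor induced by Stat3 and Stat5, rose from 13.5 ± 0.53 to 27.0 ± 0.81 CPM (2.06-fold, adjusted p = 0.00154), and Ptprc, the leukocyte phosphatase CD45, from 646 ± 13.2 to 853 ± 14.1 CPM (1.36-fold, adjusted p = 0.0104). That count was 1 without either library labelled Plek2+/+, 7 and 5 without replicate 1 and replicate 2 of those labelled Plek2-/-, and 4 with no filter. Between the populations 7 of 21 were higher in erythroblasts and 11 lower under Plek2+/+ (2 and 16 on library totals), and the number higher is near the 36% of all genes. Under Plek2-/- 6 were higher and 12 lower (2 and 17).

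**Figure D5:**
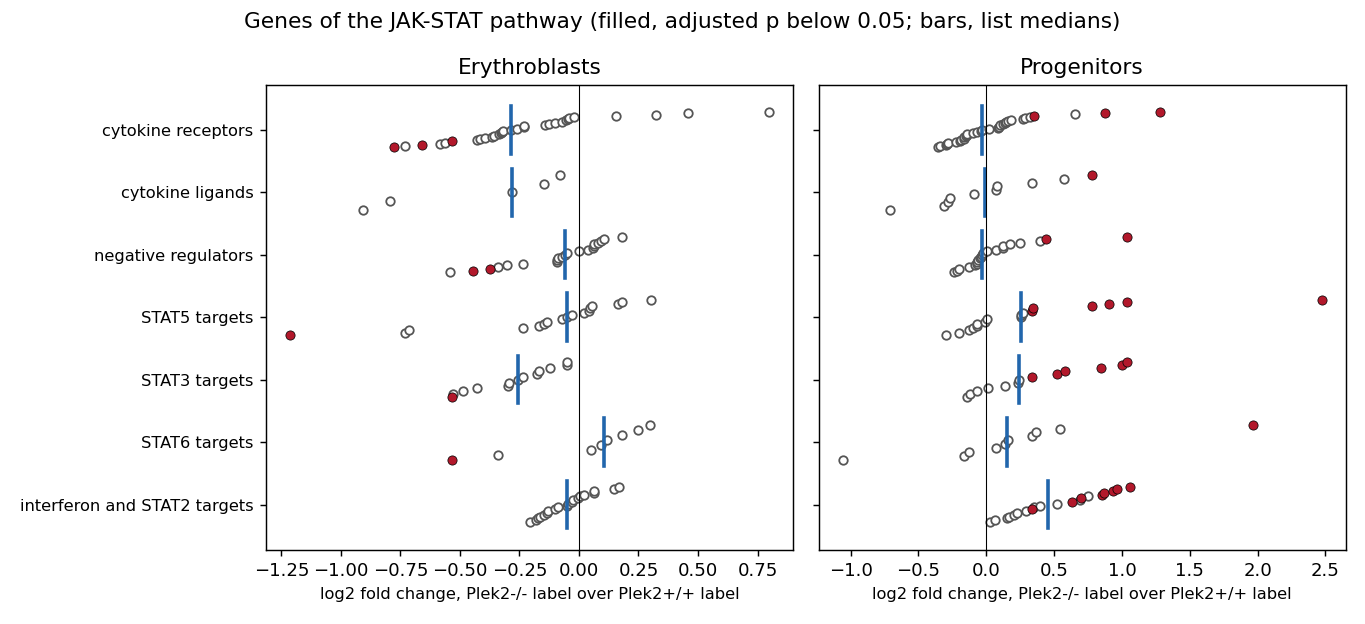
Log2 fold change under the Plek2-/- label over the Plek2+/+ label for each tested gene of the pathway lists, in erythroblasts (left) and progenitors (right); filled circles have an adjusted p below 0.05 and bars mark list medians. Interferon and Stat2 targets have a median of -0.05 with 0 of 20 called in erythroblasts and of 0.46 with 8 of 20 called, all higher, in progenitors.

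The target lists share some genes (among them Socs3, Mcl1, Pim1, Cish, Osm and Il4ra), so their counts are not independent. Of 17 Stat5 targets 1 fell in erythroblasts labelled Plek2-/-, and that 1 was Plek2. The count was 3 without replicate 1 of the libraries labelled Plek2-/- and 2 with no filter. In progenitors 6 rose and 0 fell: Socs3, Mcl1, Osm, Ccnd3, Bcl6 and Plek2, with a median of 0.25. Plek2 is the gene that the labels name, so its calls between the labels cannot be told apart from the allele itself. The neutrophil markers rose in the same progenitor libraries (13 of 13), and their part was not tested. Cish, the feedback inhibitor that Stat5 induces, gave 0.18 ± 0.11 SE in erythroblasts (adjusted p = 0.471) and -0.13 ± 0.16 SE in progenitors (adjusted p = 0.752). Pim1, a kinase gene induced by Stat5, gave -0.05 ± 0.10 SE (adjusted p = 0.886) and -0.07 ± 0.07 SE (adjusted p = 0.692).

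Between the populations, 10 of 17 Stat5 targets were higher in erythroblasts and 3 lower under Plek2+/+, with a list median of 0.82, while Stat5a and Stat5b were lower. On library totals the targets came to 7 higher and 8 lower with a median of 0.003, beside a median of -0.87 over all genes. Fam132b, the gene of the iron hormone erythroferrone, was 43.4-fold higher (130 ± 1.07 against 2.99 ± 0.08 CPM, adjusted p = 4.17e-13). Bcl2l1, the gene of the survival protein Bcl-xL, was higher by 4.91 ± 0.10 SE on the log2 scale (532 ± 11.7 against 17.7 ± 0.26 CPM, adjusted p = 3.5e-13). Cish was 7.49-fold higher (35.7 ± 1.15 against 4.74 ± 0.20 CPM, adjusted p = 1.06e-10). Under Plek2-/- 8 of 17 were higher and 7 lower, with a median of 0.17 that turned to -0.62 on library totals (8 higher, 9 lower). Plek2 was among the targets called higher under either label.

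Of 13 measured Stat3 targets 1 fell in erythroblasts labelled Plek2-/-, namely Il4ra, from 49.2 ± 2.64 to 33.8 ± 4.03 CPM (1.45-fold, adjusted p = 0.0283), and the list median was -0.26. The count was 0 without either library labelled Plek2+/+ or without replicate 2, and 5 without replicate 1, of those labelled Plek2-/-, and 3 with no filter. In progenitors 6 rose and 0 fell, with a median of 0.24. Fos rose from 97.6 ± 0.21 to 190 ± 9.13 CPM (adjusted p = 0.000523), and Socs3, Junb, Cebpd, Mcl1 and Vegfa were the others. The count was 3 without replicate 2 of the progenitors labelled Plek2+/+. For the difference between the populations 7 of 13 were called lower, as Stat3 itself was, with Socs3 at -1.24 ± 0.19 SE (adjusted p = 0.00184) and Fos at -1.02 ± 0.17 SE (adjusted p = 0.00313). That count was also 3 without replicate 2 of the progenitors labelled Plek2+/+. Between the populations 3 of 13 were higher in erythroblasts and 7 lower under Plek2+/+, with a median of -0.51, and 1 was higher and 10 lower under Plek2-/-, with a median of -1.03. On library totals these were 1 and 11 (median -1.32) and 1 and 12 (median -1.81). In the genotype comparisons the neutrophil marker sums given with Stat3 moved the same way as the called genes of this list. Between the populations 12 of 13 neutrophil markers were called higher in erythroblasts under Plek2+/+, against the direction of most Stat3 targets. Under Plek2-/- 13 of 13 were called lower. The part of neutrophils was not tested.

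Interferon and Stat2 targets were mostly higher in erythroblasts under TMM scaling. Under Plek2+/+ 15 of 20 were higher in erythroblasts and 3 lower, with a median of 1.35. Rsad2, the antiviral gene of viperin, was 165-fold higher (2450 ± 235 against 14.9 ± 0.04 CPM, adjusted p = 2.82e-13), and Isg15 84.3-fold higher (190 ± 21.6 against 2.27 ± 0.25 CPM, adjusted p = 9.79e-12). Stat2 itself differed by 1.25-fold in the same comparison. On library totals 10 were higher and 5 lower, with a median of 0.54. Under Plek2-/- 13 were higher and 5 lower with a median of 0.58, which turned to -0.20 on library totals (9 higher, 6 lower). Macrophage markers also summed higher in erythroblasts, at 1350 to 1590 CPM against 681 to 779. Of the 10 measured, 8 were called higher there under either label and 2 lower (Csf1r and Ly6c2). The part of macrophages was not tested.

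Under the genotype labels, 0 of 20 interferon and Stat2 targets were called in erythroblasts by edgeR, DESeq2 or limma-voom (0 also before adjustment at 0.05), with 3 called without replicate 1 of the libraries labelled Plek2-/-. In progenitors 8 of 20 rose under the Plek2-/- label and 0 fell, with a median of 0.46 and values from 0.03 to 1.06. Oas2 rose from 16.4 ± 1.11 to 33.1 ± 3.86 CPM (2.09-fold, adjusted p = 0.00202) and Rsad2 from 14.9 ± 0.04 to 26.3 ± 0.70 CPM (1.82-fold, adjusted p = 0.00193). The count was 3 without replicate 2 of the libraries labelled Plek2+/+ and 15 without replicate 2 of those labelled Plek2-/-. For the difference between the populations 6 of 20 were called, all lower, with 2 without replicate 2 of the progenitors labelled Plek2+/+, 3 without replicate 1 of the erythroblasts labelled Plek2+/+, 11 without replicate 1 of the erythroblasts labelled Plek2-/- and 10 with no filter. The neutrophil markers rose in the same progenitor libraries, and their part was not tested.

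Of the Stat6 targets 1 of 8 fell in erythroblasts labelled Plek2-/-, again Il4ra, and 1 of 10 rose in progenitors. That was Chi3l3, a chitinase-like gene that is also a neutrophil marker, at 268 ± 63.0 and 1020 ± 284 CPM (3.92-fold, adjusted p = 0.00219). In erythroblasts the count was 0 without either library labelled Plek2+/+ or without replicate 2 of those labelled Plek2-/-, and 2 with DESeq2, with no filter or with the replicate block. In progenitors it was 4 without replicate 1 of the libraries labelled Plek2-/-, 3 with no filter and 2 with the replicate block. Between the populations 5 of 10 were higher in erythroblasts and 4 lower under Plek2+/+, with the lowest adjusted p for Tgm2, a transglutaminase gene (16.3-fold, adjusted p = 1.55e-12), and Mrc1, a macrophage receptor gene that is also a macrophage marker (29.7-fold, adjusted p = 1.62e-12). The list median of 0.43 turned to -0.38 on library totals (5 higher, 5 lower). Under Plek2-/- 4 were higher and 6 lower under either scaling, with a median of -0.69 (-1.48 on library totals).

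The genes whose levels ran most like each member were found by Pearson's r of log2 CPM over the 8 libraries among 8953 genes with a mean of at least 10 CPM. The libraries fall into 2 populations that differ widely, so a high r says mainly that a gene shares the population difference, and the values are a description. Jak2 ran closest to Cdk2, a cell cycle kinase gene (r = 0.9987). Jak1 ran closest to Prkaa1, a catalytic subunit gene of AMP-activated kinase (r = 0.9985), and St3gal5. Stat3 ran closest to Mtus1 (r = 0.9988) and Itih5. For Stat2, the flattest member under TMM scaling, the closest genes reached less, with Tdrd7 at r = 0.9516 and Tor1aip1 at 0.9338. The nearest genes were Ampd2 and Lclat1 for Jak3, Ankrd10 and Hsd3b7 for Tyk2, Cul9 and Ccbl2 for Stat5a, Dock2 and D19Wsu162e for Stat5b, and Hsdl1 and Flna for Stat6.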

How the data were processed

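Whole-number counts per gene for 23337 genes in 8 libraries were deposited by the authors, beside a second deposited table of normalized signal. That signal was checked to equal the counts divided by 1 size factor per library, and only those factors were used. Tools listed in the submitters' processing notes are STAR 2.5.2a, HTSeq 0.6.1pl, cutadapt 1.13 and DESeq2 1.14.1, with the build mm10 (GRCm38). Roles, annotation and strand setting are not given in the sources used. Replicates of every group differed beyond counting error, with chi-square values of 5.92 to 16.5 for each degree of freedom, and all were kept as separate samples. Reads carry no molecular identifiers, and limits derived from counts therefore cover counting error alone.

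Tests used edgeR 4.0.16 in R 4.3.3 on the counts as deposited: TMM scaling, filterByExpr, quasi-likelihood fits and Benjamini-Hochberg adjustment over all genes tested, with genes called at an adjusted p below 0.05 and no fold minimum. Genotype comparisons were fitted on the 4 libraries of a population, and population contrasts and the difference between genotype effects on all 8. Biological coefficients of variation were 8.12% (erythroblasts), 7.17% (progenitors) and 7.62% (all 8). Printed CPM use 1 set of TMM factors over the 8 libraries, lengths are union exons of GENCODE vM21 on GRCm38, and promoters come from RefSeq GRCm38.p6. Alternatives were DESeq2 1.42.0, limma-voom (limma 3.58.1), other scalings and filters, the replicate block, other lengths and leaving out each library.

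The members and lists were chosen with earlier results of these data known. Named genes are the 9 members; from each list and comparison the 2 genes of lowest adjusted p among those called, or else the most abundant tested gene; the 2 genes most like each member, of which 1 is not reported here; and Plek2. Epor, Cish and Pim1 in the genotype comparisons, and the names that spell out a small count, were added after their values were seen.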

Additional observations from a re-analysis of the deposited data

Results flagged for a closer look

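Stat3 is listed because its genotype effect differed between the populations by a test of that difference. The effect in erythroblasts minus that in progenitors was -0.71 on the log2 scale (edgeR, adjusted p = 0.00493): Stat3 was lower under the Plek2-/- label in erythroblasts (2 of 2 libraries below both labelled Plek2+/+) and higher in progenitors (2 of 2 above). Stat3 in progenitors alone did not pass the test (0.28, adjusted p = 0.0939). With 2 libraries a group, no single library could be tested as an outlier.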

How the results depend on the processing

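Of the 351 member values recomputed under another tool, scaling, filter or model, 334 kept their direction and side of the threshold, 13 changed sign and 4 newly passed; of 216 recomputed without 1 library, 187 kept both, 16 changed sign, 8 newly passed and 5 no longer did. Sign changes concerned values near 0, apart from Jak1 (-0.0484 and -0.18) and Stat2 (-0.50 and -0.67) on library totals in the population contrasts. They were Jak1 in erythroblasts (DESeq2 -2.4e-05, the authors' size factors -0.0065, a count of at least 10 in each library -0.00035, 1 fit of 8 libraries -0.0072), Stat5b in progenitors (library totals -0.0399, the authors' size factors -0.017, 1 fit of 8 libraries -0.022) and Tyk2 for the difference between genotype effects (no filter -0.0103, a count of at least 10 -0.069). Without 1 library the values ran from -0.0361 to 0.0253 for Jak1, -0.18 to 0.00944 for Jak2, -0.21 to 0.0531 for Stat2 and -0.11 to 0.11 for Stat5a in erythroblasts, from -0.0439 to 0.0867 for Stat5b in progenitors, from -0.0039 to 0.24 for Stat2 between populations under Plek2-/-, and from -0.0678 to 0.057 for Tyk2 and -0.0074 to 0.19 for Stat5a for the difference. Genes called in erythroblasts (348) numbered 230 on library totals, 547 with the authors' size factors, 845 with no filter and 579 with the replicate block. With no filter 1315 genes were called in progenitors (646) and 1215 for the difference (742); members called were 1 in progenitors with no filter and 2 for the difference with a count of at least 10. Without 1 library, genes called ran from 25 to 995 in erythroblasts (34 and 25 without replicate 1 and 2 labelled Plek2+/+, 995 and 119 without replicate 1 and 2 labelled Plek2-/-), from 239 to 2649 in progenitors and from 401 to 1175 for the difference. Members called ran from 0 to 2, 0 to 4 and 1 to 2. A fit that leaves a group with 1 library assumes that it varies like the others. Of the 36 pairs in the order per length, coding length kept 34 and 33 in erythroblasts (Plek2+/+ and Plek2-/- label) and 29 and 31 in progenitors; transcript length kept 35 in erythroblasts labelled Plek2+/+ and 35 and 34 in progenitors. The causes were not tested. The replicate numbers did not show a pairing (correlations of deviations 0.03 in erythroblasts, -0.08 in progenitors, and 0.0461 and 0.102 between the populations under Plek2+/+ and Plek2-/-), and the replicate block left the member calls as they were. Reads per gene limit Jak3 in erythroblasts most, at 99 to 179 counts per library.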

Other observations

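Ratios of counts within a library need no scaling between libraries and compare a pair of genes across samples, not their levels. Jak2 counts were 3.39 to 4.36 times those of Stat5b in the 4 erythroblast libraries and 0.988 to 1.15 times in the 4 progenitor libraries. Jak2 over Jak1 was 0.505 to 0.612 and 0.388 to 0.445. Stat3 over Stat5b was 0.822 to 1.05 in erythroblasts and 1.06 to 1.33 in progenitors. These 3 ratios did not overlap between the populations, but for Stat3 over Stat5b the ranges nearly touched, at 1.05 and 1.06. Stat5b over Stat5a overlapped, at 1.76 to 2.41 and 1.75 to 2.08.

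Markers of mast cells, basophils and eosinophils, cells that use interleukin-5 and interleukin-3 receptors, ran lower under the Plek2-/- label. They summed to 2150 and 2550 CPM in erythroblasts labelled Plek2+/+ and 1380 and 931 in those labelled Plek2-/-. There 4 of 9 were called lower (Epx, Prg2, Prg3 and Ear6), against 2.66% of all genes. Cpa3, Fcer1a, Ms4a2, Mcpt8 and Prss34 were not called, and the log2 values of the list ran from -1.28 to -0.006. Csf2rb, the receptor chain described above, fell in the same libraries. In progenitors the markers summed to 2920 and 3650 CPM under Plek2+/+ and 2420 and 1390 under Plek2-/-. Of the 9 markers 1 was called there, Prss34, which was lower, against 0.402% of all genes called lower. Csf2rb did not fall in progenitors (163 ± 8.53 CPM under Plek2+/+ and 169 ± 18.1 under Plek2-/-, SD, n = 2). A link between Csf2rb and these cells was not tested.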
